A study of Mus musculus with 4 samples.

Results

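A set of 9 genes of hepatic glucose production and of its switch between fasting and feeding were followed in single-nucleus RNA sequencing of mouse liver. They were taken by symbol, and all 9 were among the 32285 genes of the count tables. The set holds the gluconeogenic enzymes Pcx, Pck1, Fbp1 and G6pc, the transcriptional regulators Ppargc1a and Foxo1, the fasting-responsive genes Igfbp1 and Pdk4, and the glycolytic enzyme Pklr. Nuclei were taken from liver tissue outside tumors, from males aged 12 months that were dosed with 25 mg/kg DEN (diethylnitrosamine, a carcinogen that hepatocytes activate) at 14 days of age. Every animal had received DEN, so no untreated liver was measured. There were 2 Brca1-WT libraries, and 2 more carried the label Brca1-KO. No label gives the deleted part of Brca1, a driver or cell type of the deletion, the strain, the feeding state or the hour of killing.

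Gluconeogenesis makes glucose from lactate, glycerol and amino acids and keeps blood glucose up between meals. Pyruvate carboxylase (Pcx) and phosphoenolpyruvate carboxykinase (Pck1) carry pyruvate past the irreversible last step of glycolysis, fructose-bisphosphatase (Fbp1) reverses the phosphofructokinase step, and glucose-6-phosphatase (G6pc) releases free glucose. Glucagon, glucocorticoids and low insulin raise this programme through cAMP response elements, the coactivator PGC-1α (Ppargc1a) and the forkhead factor FOXO1, and insulin and carbohydrate raise glycolytic genes such as Pklr, liver pyruvate kinase. The liver lobule is zoned: hepatocytes near the portal vein are known for gluconeogenesis and urea synthesis, and those near the central vein for glutamine synthesis and drug metabolism.

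The promoter stretches of 4 members are given first. They hold letter matches to the cores of elements through which the fasting signals are known to act. Each is the 250 bases before the transcription start in the RefSeq annotation of GRCm38.p6, written 5′ to 3′ along the gene's strand. All 9 members matched an entry, in 11 windows. Both strands were searched for the cAMP response element TGACGTCA, its core TGACG (which lies inside the full element), the forkhead core TGTTT, the E-box CACGTG and the glucocorticoid half-site AGAACA, and capitals mark each match or its reverse complement.
G6pc, chr11:101367466-101367715, plus strand: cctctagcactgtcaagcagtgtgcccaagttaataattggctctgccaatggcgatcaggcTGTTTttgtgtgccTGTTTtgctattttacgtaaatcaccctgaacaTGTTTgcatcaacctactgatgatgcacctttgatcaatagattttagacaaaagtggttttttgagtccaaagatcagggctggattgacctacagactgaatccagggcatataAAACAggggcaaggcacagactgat
Igfbp1, chr11:7197537-7197786, plus strand: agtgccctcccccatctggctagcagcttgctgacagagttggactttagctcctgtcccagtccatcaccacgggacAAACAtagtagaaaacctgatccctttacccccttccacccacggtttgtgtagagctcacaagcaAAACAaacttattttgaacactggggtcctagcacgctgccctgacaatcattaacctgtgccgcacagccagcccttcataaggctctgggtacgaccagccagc
Pck1, chr2:173152823-173153072, plus strand: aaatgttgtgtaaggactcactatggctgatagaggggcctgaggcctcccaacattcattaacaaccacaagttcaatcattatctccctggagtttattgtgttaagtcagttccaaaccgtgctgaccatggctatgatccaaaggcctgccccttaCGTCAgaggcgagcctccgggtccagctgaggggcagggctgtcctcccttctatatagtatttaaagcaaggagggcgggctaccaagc
Ppargc1a, chr5:51567726-51567975, minus strand: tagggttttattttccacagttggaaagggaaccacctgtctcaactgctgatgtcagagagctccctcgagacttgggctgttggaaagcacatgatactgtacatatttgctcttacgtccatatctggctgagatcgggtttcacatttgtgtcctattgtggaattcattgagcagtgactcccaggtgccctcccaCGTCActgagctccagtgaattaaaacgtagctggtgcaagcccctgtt
In G6pc the forkhead core stood at 4 places, beginning 188, 174, 141 and 25 bases before the start, and 2.30% of 32851 promoters of this length held it at 4 or more places. Igfbp1 held it at 2 places, 172 and 106 bases before the start, as did 18.3% of promoters at 2 or more places. The core of the cAMP element stood once in Pck1, 90 bases before the start, and once in Ppargc1a, 49 bases before it, and 17.8% of promoters held at least 1. The full element, held by 1.55% of promoters, and the glucocorticoid half-site, held by 16.1%, were in no window of the 9 members. Foxo1 held 1 forkhead core (46.4% of promoters hold at least 1), 1 of the windows of Pcx held an E-box (6.02%), and the windows of Fbp1, Pdk4 and Pklr held none of these letters. These matches are letters in a window, and no binding was measured.

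The deposited barcodes numbered 5209 to 7833 per library with 36662067 to 45638888 unique molecular identifiers (UMIs, each a counted transcript molecule) in all. After filters, 2573 to 4091 nuclei per library were called hepatocyte-like from their clusters, at a median of 5950 to 9513 UMIs, and all 10 hepatocyte markers were detected in every library. Values below are in the order Brca1-WT replicate 1, Brca1-WT replicate 2, and the libraries labelled Brca1-KO replicate 1 and replicate 2. Brca1 itself stood at 13.4, 12.4, 18.6 and 5.78 CPM (counts-per-million: a gene's UMIs over all UMIs of those nuclei in a library) in hepatocyte-like nuclei, so the library labelled Brca1-KO replicate 1 was not below the Brca1-WT libraries, and 3′ counts outside a deleted part would not show a deletion. The library labelled Brca1-KO replicate 2 stood apart: 94.9% of its hepatocyte-like nuclei fell into 3 clusters that took 2.04%, 2.51% and 0.155% of those of the other libraries. Results are therefore also given without it. Libraries shared 8 to 17 barcodes per pair. The labels call the samples biological replicates and describe the animals no further, so p-values measure the spread between these samples.

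Levels of the members are in CPM of hepatocyte-like nuclei, with 95% Poisson intervals for counting error only. They are not divided by transcript length and are compared only within a gene. The enzyme at the exit of the pathway, G6pc (ENSMUSG00000078650), varied most among the gluconeogenic enzymes, at 1099 (1087 to 1111), 424 (416 to 431), 408 (401 to 415) and 115 (112 to 118) CPM. Brca1-WT replicate 1 was high, the library labelled Brca1-KO replicate 2 was low, and the remaining pair stood close together. The groups did not overlap, with 408 just under 424, and the highest library was 9.56 times the lowest. Pck1 (ENSMUSG00000027513), the enzyme that commits oxaloacetate to glucose, stood at 2595, 3044, 2233 and 1626 CPM. Its groups did not overlap, and the lowest value was again in Brca1-KO replicate 2, by its label.

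Fbp1 (ENSMUSG00000069805) stood at 472, 488, 526 and 246 CPM. The first 3 values were close together and the library labelled Brca1-KO replicate 2 was at 0.497 times their mean. Pcx (ENSMUSG00000024892), the mitochondrial first enzyme of the path from pyruvate, was the steadiest of the 9, at 602, 499, 592 and 526 CPM, and its groups overlapped. The ratio of its highest to its lowest library was 1.21.

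Ppargc1a (ENSMUSG00000029167), which encodes the coactivator that glucagon and fasting induce, stood at 188, 302, 333 and 110 CPM. The 2 middle libraries, 1 of each label, were high and the outer ones low. Foxo1 (ENSMUSG00000044167), whose protein insulin keeps out of the nucleus, stood at 566, 560, 673 and 408 CPM. Its highest and its lowest level were both in libraries labelled Brca1-KO, and the Brca1-WT libraries lay between them.

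Igfbp1 (ENSMUSG00000020429), a secreted binding protein of insulin-like growth factors that insulin represses, had the widest range, at 79.7, 53.7, 53.9 and 7.50 CPM. The library labelled Brca1-KO replicate 2 was at 0.120 times the mean of the other 3, while replicate 1 could not be told apart from Brca1-WT replicate 2 (intervals 51.3 to 56.7 and 51.1 to 56.4). Pdk4 (ENSMUSG00000019577), the kinase that shuts pyruvate dehydrogenase in fasting, was sparse in hepatocyte-like nuclei, at 8.07, 4.86, 4.15 and 1.93 CPM from 237, 144, 121 and 75 UMIs. Its groups did not overlap, although the Poisson intervals of the inner libraries did (4.10 to 5.73 and 3.44 to 4.95). Pklr (ENSMUSG00000041237), which fasting lowers and carbohydrate raises, stood at 38.2, 15.9, 15.1 and 31.1 CPM. It was high in the first and the last of these libraries and low in both others, the reverse of Ppargc1a.

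**Figure D1:**
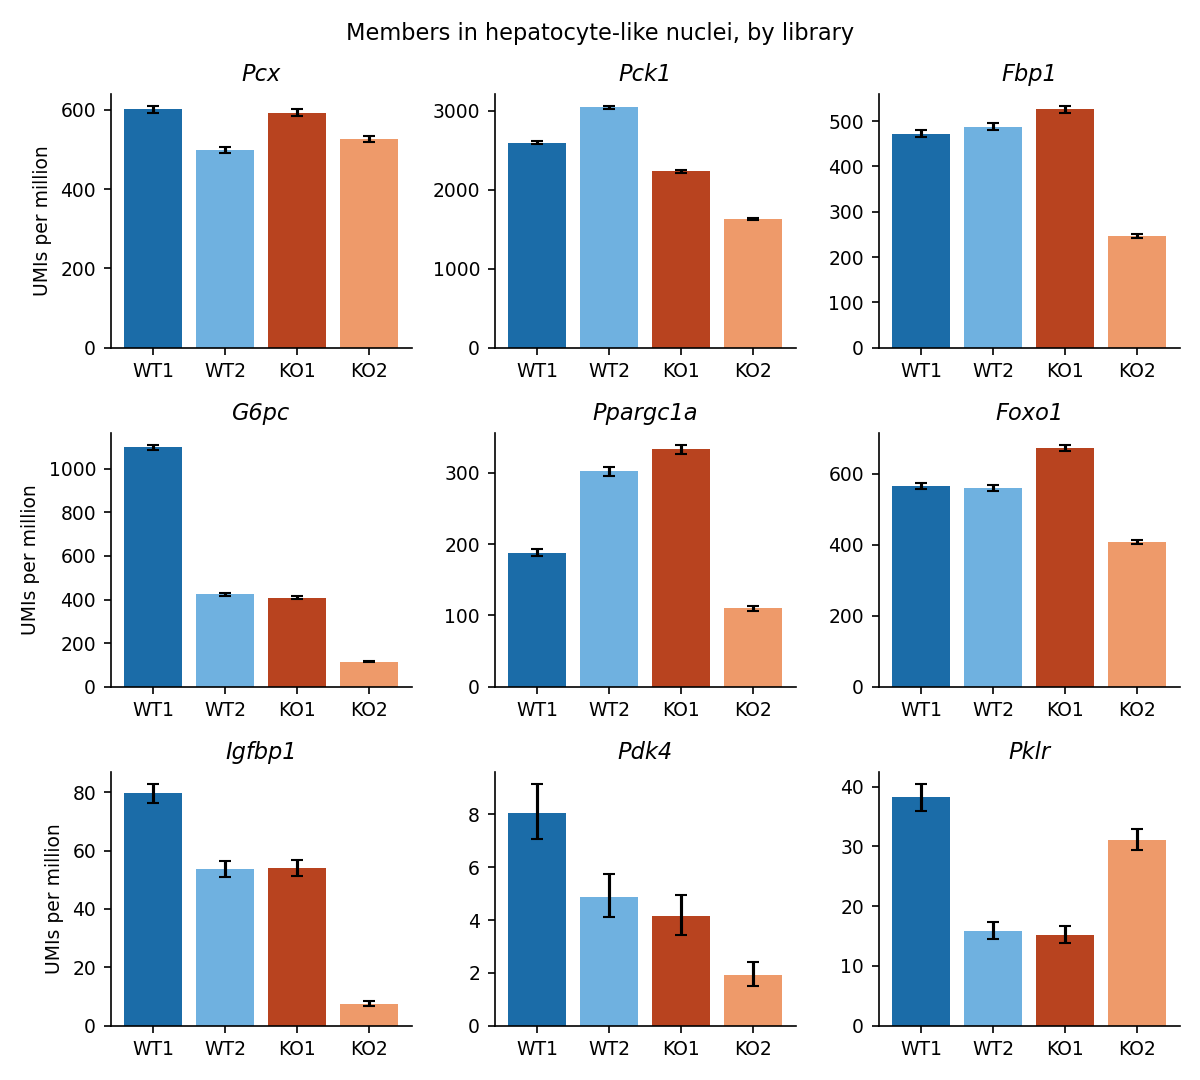
Each panel shows a member's level in hepatocyte-like nuclei, in CPM, as a bar per library (WT1 and WT2, Brca1-WT; KO1 and KO2, labelled Brca1-KO), with 95% Poisson intervals as error bars. The KO2 bar is the lowest for 7 of the 9 members, Pcx is nearly level, and Pklr is high in WT1 and KO2.

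Of the 9 members, 7 were lowest in the library labelled Brca1-KO replicate 2, where 32.2% of the 15113 genes tested were lowest, the exceptions being Pcx and Pklr. The groups did not overlap for 3 of the 9, G6pc, Pck1 and Pdk4, all with the libraries labelled Brca1-KO below. Of all genes tested 31.9% did not overlap, and 16.9% of all genes did so in that direction, so the share of members that did not overlap (3 of 9) is near the background of either direction.

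The comparison of the genotypes asks whether loss of Brca1 in the carcinogen-exposed liver goes with a change in these genes. No member passed the test. In edgeR's quasi-likelihood test across all genes (Benjamini-Hochberg adjustment, threshold 0.05), the number called was 0 of 15113 (0.0%), with 499 genes (3.3%) at an unadjusted p below 0.05, and DESeq2 called 23 genes, none of them a member. The log2 fold change (Brca1-KO minus Brca1-WT) of G6pc was -1.51 (SE 0.73, adjusted p = 0.989), with group means of 762 ± 478 (SD, n = 2) and 261 ± 207 CPM. For Igfbp1 it was -1.10 (SE 0.85), for Pdk4 -1.06 (SE 0.46) and for Pck1 -0.50 (SE 0.30). The other 5 members lay between -0.28 (Fbp1, SE 0.37) and 0.07 (Pcx, SE 0.23), and all 9 adjusted p-values were 0.989 or higher. Over the 9 members the median log2 fold change was -0.28, with 8 below 0, beside -0.01 over all genes tested.

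The values turned on single libraries. Leaving out the library labelled Brca1-KO replicate 2 put G6pc and Igfbp1 at -0.88 and -0.29, and Fbp1, Ppargc1a and Foxo1 above 0 (0.15, 0.46 and 0.27). With Brca1-KO replicate 1 left out, replicate 2 was alone in its group. G6pc then stood at -2.62 and Igfbp1 at -3.05, and Igfbp1 was at -3.07 in the middle zone. These values describe that library beside the Brca1-WT libraries and cannot be read as an effect of genotype. Leaving out Brca1-WT replicate 1 moved G6pc to -0.67.

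The library labelled Brca1-KO replicate 2 had a few nuclei that clustered with the other libraries. In its 73, 63 and 44 nuclei of the shared clusters 3, 4 and 8, G6pc stood at 75.4, 177 and 209 CPM, while the other 3 libraries ranged from 286 to 1000.1, from 313 to 1097 and from 571 to 1596 in the same clusters. Fbp1, Ppargc1a and Foxo1 were also lowest in this library in all 3 clusters, as was Igfbp1 on 2 to 5 UMIs a cluster. Pck1 was lowest in clusters 3 and 4 but not in cluster 8 (2382 CPM against 2323 in the library labelled Brca1-KO replicate 1), Pcx and Pklr were not lowest in these clusters, and Pdk4 had at most 1 UMI in each. In the small cluster led by Cyp2b9 and Cyp2a4, with 150 nuclei of Brca1-WT replicate 1 and 22 of replicate 2, Igfbp1 reached 341 CPM in Brca1-WT replicate 1, against 54.9 to 86.3 in clusters 3, 4, 8, 9 and 11 of that library. These clusters were built from all genes, so these values are a description.

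To place nuclei along the lobule, a score was made from 10 periportal genes (such as Cyp2f2, Hal and Sds) and 12 perivenous genes (such as Glul, Cyp2e1 and Slc1a2), none of them a member, and the nuclei of each library were cut into a periportal, a middle and a perivenous zone of equal size. Between the outer zones edgeR with the library as a block called 3357 of 12679 genes (26.5%), 13.5% higher in the periportal and 12.9% higher in the perivenous zone, and 36.8% of genes had an unadjusted p below 0.05. Of the 9 members 4 passed, all higher in the periportal zone: Fbp1, G6pc, Pklr and Ppargc1a. By the pooled edgeR estimate Fbp1, G6pc and Pklr were also at least 2 times higher there, as were 2.59% of genes tested. In single libraries the ratio was as low as 1.77 for G6pc and 1.80 for Pklr, and under other settings the log2 estimates were as small as -0.96 and -0.91. Pck1, Igfbp1, Pdk4, Pcx and Foxo1 did not pass. The median log2 difference (perivenous minus periportal) of the 9 was -0.46, beside -0.00133 over all genes tested.

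Fbp1 fell from the periportal through the middle to the perivenous zone in every library. It stood at 724, 415 and 296 CPM in Brca1-WT replicate 1, at 686, 450 and 332 in Brca1-WT replicate 2, and, of those labelled Brca1-KO, at 759, 467 and 353 in replicate 1 and 362, 247 and 158 in replicate 2. The outer zones differed by 2.07 to 2.45 times in all 4 libraries, whatever the level of the library as a whole, and edgeR gave a log2 difference of -1.15 (SE 0.05, adjusted p = 3.2e-07).

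G6pc fell along the same path in every library, from 1467 through 1029 to 829 CPM in Brca1-WT replicate 1 and from 599 through 377 to 299 in Brca1-WT replicate 2. In the libraries labelled Brca1-KO it fell from 635 through 323 to 268 in replicate 1 and from 170 through 106 to 80.8 in replicate 2. Its outer zones differed by 1.77 to 2.37 times, a log2 difference of -1.03 (SE 0.07, adjusted p = 3.1e-06, edgeR). The perivenous nuclei of Brca1-WT replicate 1 held more G6pc than the periportal nuclei of each other library.

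Pck1 differed less between zones in 3 libraries than in the other. The periportal and perivenous zones stood at 2718 and 2336 CPM in Brca1-WT replicate 1, at 3373 and 2729 in Brca1-WT replicate 2 and, where the label was Brca1-KO replicate 1, at 2351 and 2087, which are ratios of 1.13 to 1.24. In the library labelled Brca1-KO replicate 2 it stood at 2340, 1711 and 1016 from the periportal to the perivenous zone, a ratio of 2.30. Its periportal level there was close to the 2351 of replicate 1, and the gap between these libraries lay in the middle and perivenous zones. The pooled log2 difference was -0.46 (SE 0.20, adjusted p = 0.191, edgeR), and with that library left out it was smaller but passed (-0.23, adjusted p = 0.008), as it did in DESeq2 with all 4 libraries (-0.46, adjusted p = 0.017). Pcx showed ratios of only 1.04 to 1.13 (log2 difference -0.10, SE 0.05, adjusted p = 0.144).

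Among the regulators, Ppargc1a was higher in the periportal zone of every library, at 287 against 128 CPM in Brca1-WT replicate 1, 356 against 251 in Brca1-WT replicate 2, and 404 against 276 and 150 against 83.6 in the libraries labelled Brca1-KO. The ratio ranged from 1.42 to 2.24 and the log2 difference was -0.75 (SE 0.12, adjusted p = 0.006, edgeR), a call lost when Brca1-KO replicate 2 was left out (-0.73, adjusted p = 0.069). Foxo1 was within 1.03 to 1.14 times between the outer zones (log2 difference -0.10, SE 0.05, adjusted p = 0.162).

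Igfbp1 and Pdk4 pointed the other way, toward the central vein, and neither passed. Igfbp1 stood at 76.5 in the periportal and 79.3 CPM in the perivenous zone of Brca1-WT replicate 1, at 31.5 and 63.2 in Brca1-WT replicate 2, and at 46.0 and 60.0 and at 4.77 and 8.88 in the libraries labelled Brca1-KO. The perivenous zone was the higher in 4 of 4 libraries, though hardly so in the first, and edgeR gave 0.51 (SE 0.19, adjusted p = 0.114). In that first library the cluster led by Cyp2b9 and Cyp2a4, where Igfbp1 was high, lay mostly in the periportal zone. It had 100 nuclei there, 41 in the middle and 9 in the perivenous zone. The part of this cluster in the Igfbp1 zone values was not tested. It passed between the outermost 25% of nuclei at each end of the score (0.70, adjusted p = 0.002). Across 10 equal steps of the score its lowest value lay within the first 3, the periportal end, in every library, and in Brca1-WT replicate 1 its highest value was in step 4, at 113 CPM. Pdk4 stood at 8.16 and 9.61, 3.28 and 6.55, 3.31 and 4.94, and 0.434 and 3.35 CPM in the same order, a log2 difference of 0.83 (SE 0.32, adjusted p = 0.110). It too passed between the outermost 25% (1.17, adjusted p = 0.010). In the most perivenous of the 10 steps, the library labelled Brca1-KO replicate 2 had 28 of its 75 Pdk4 UMIs. The summed level of 10 endothelial markers hardly differed between the outer zones (19.3 and 18.5 CPM in that library, 53.8 and 58.0 in Brca1-WT replicate 1). That of 10 T cell markers stood at 5.76 and 17.1, 4.31 and 6.75, 3.72 and 4.73, and 4.86 and 50.9 CPM in the same order of libraries. In the library labelled Brca1-KO replicate 2, markers of NK and innate lymphoid cells stood at 1.56 and 1.97 CPM. The part of any of these cells in the Pdk4 values was not tested.

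Pklr, an enzyme of the opposing pathway, lay on the same side as the gluconeogenic enzymes. It was higher in the periportal than in the perivenous zone at 64.5 against 20.5, 22.3 against 11.5, 22.8 against 11.0 and 40.8 against 22.7 CPM in the 4 libraries. Ratios ran from 1.80 to 3.14, and the log2 difference was -1.13 (SE 0.14, adjusted p = 0.001, edgeR). Fbp1, G6pc and Pklr kept their call with each library left out in turn, and the 4 called members lost it only where the library block was omitted, apart from the loss of Ppargc1a already given.

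**Figure D2:**
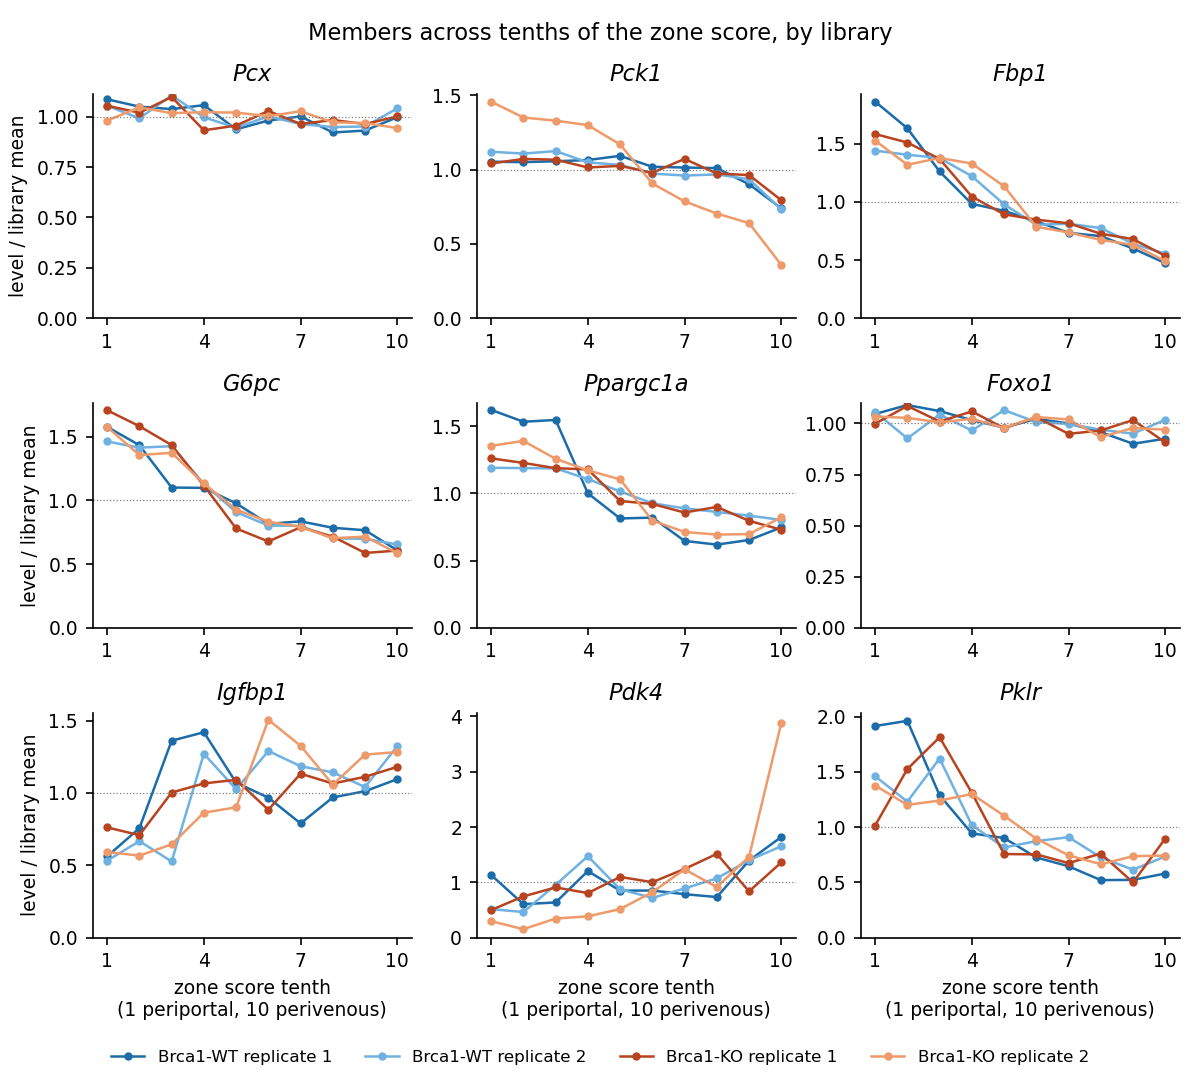
Each panel shows a member across 10 equal steps of the zone score, from 1 (periportal) to 10 (perivenous), as its CPM divided by its mean in that library, with a line per library. The lines of Fbp1, G6pc, Ppargc1a and Pklr end lower than they begin in all 4 libraries, though that of Pklr in KO1 goes from 15.4 CPM at step 1 to 27.6 at step 3 and 13.6 at step 10. Pcx and Foxo1 stay near 1, and the line of Pck1 is steepest in KO2 (the library labelled Brca1-KO replicate 2).

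**Figure D3:**
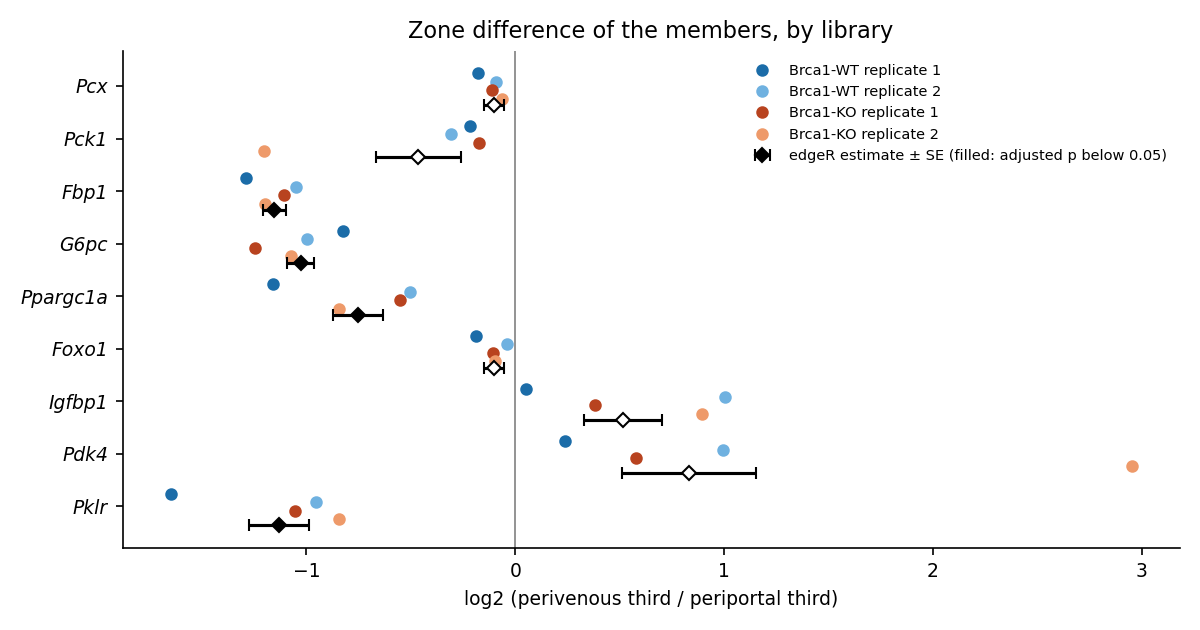
Points show the log2 ratio of the perivenous to the periportal zone in each library, and diamonds the edgeR estimate with its standard error, filled where the adjusted p is below 0.05. Filled diamonds stand at Fbp1, G6pc, Ppargc1a and Pklr, and the points of Igfbp1 and Pdk4 lie to the right of 0.

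The zone differences were not shown to differ between the genotypes. The interaction test called 0 of 12679 genes (0.0%) in edgeR, with 378 (2.98%) at an unadjusted p below 0.05. The largest interaction estimates among the members were 0.77 for Pdk4 (SE 0.65), 0.45 for Pklr (SE 0.24) and -0.42 for Pck1 (SE 0.37), each at an adjusted p of 0.9999. Without Brca1-KO replicate 1, so that replicate 2 was alone in its group, the estimate for Pck1 was -0.91. Without replicate 2 the estimate for Pck1 was 0.09. Within a single zone the genotype fit called 0 of 12798 genes in the periportal zone, 1 of 12919 in the middle zone (0.00774%; Thsd4, no member, which was lower in the libraries labelled Brca1-KO) and 0 of 12755 in the perivenous zone, with 351 (2.74%), 400 (3.1%) and 411 (3.22%) genes at an unadjusted p below 0.05. G6pc stood at -1.35, -1.71 and -1.67 in the 3 zones, and no member passed in a zone.

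Outside hepatocytes the members were read as a percentage of their hepatocyte-like level in the same library. Beside them stand 20 reference genes taken as made by hepatocytes alone (such as Alb, Apob and Ttr). Their summed level was used as a rough measure of the free hepatocyte RNA in the other nuclei. In endothelial-like nuclei (673 to 1568 per library, median 1255 to 1851 UMIs) that reference stood at 26.7%, 30.2%, 25.9% and 52.9%, and single reference genes ranged from 13.4% to 176%. Pcx, Pck1, Fbp1, G6pc, Ppargc1a and Pklr stood at 11.4% to 44.2% there, each below the reference of its library. In stellate-like, Kupffer-like and B cell-like nuclei and in the cluster with T and NK cell markers, no value of these 6 genes lay above the highest reference gene either. The reference genes did not keep a common ratio, and the highest stood at up to 176% in endothelial-like nuclei. Lying below it therefore does not show that a gene is not expressed. Such values are read neither as expression by those cells nor as its absence.

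Pdk4 was the exception. In endothelial-like nuclei it stood at 27.0, 42.7, 32.7 and 18.5 CPM (89, 109, 65 and 18 UMIs), which is 335%, 879%, 789% and 957% of its hepatocyte-like level. In stellate and mesenchymal-like nuclei it stood at 29.9, 39.9, 26.2 and 5.94 CPM (38, 53, 25 and 8 UMIs), or 371%, 820%, 632% and 307%. It lay above every reference gene in both classes in all 4 libraries, and it alone of the 9 did so. In stellate-like nuclei of at most 2000 UMIs, with 1 to 8 Pdk4 UMIs a library, this no longer held in the library labelled Brca1-KO replicate 1. Kupffer-like and B cell-like nuclei held 0 to 3 Pdk4 UMIs per library. The summed endothelial markers in hepatocyte-like nuclei stood at 54.7, 44.4, 30.5 and 17.8 CPM, the same order of libraries as Pdk4 there, and their part in the hepatocyte Pdk4 values was not tested.

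Foxo1, a factor that endothelial and B cells are also known to use, stood above the summed reference in endothelial-like nuclei, at 53.4%, 61.2%, 57.2% and 81.2% of its hepatocyte-like level, though within the range of single reference genes. In B cell-like nuclei it reached 110%, 117%, 99.5% and 132%, from 98 to 176 UMIs per library, against a reference of 44.8%, 50.7%, 51.2% and 61.2%. In Kupffer-like nuclei it stood at 22.1% to 50.6%. Igfbp1 in endothelial-like nuclei stood at 25.2% to 28.5% in all 4 libraries.

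**Figure D4:**
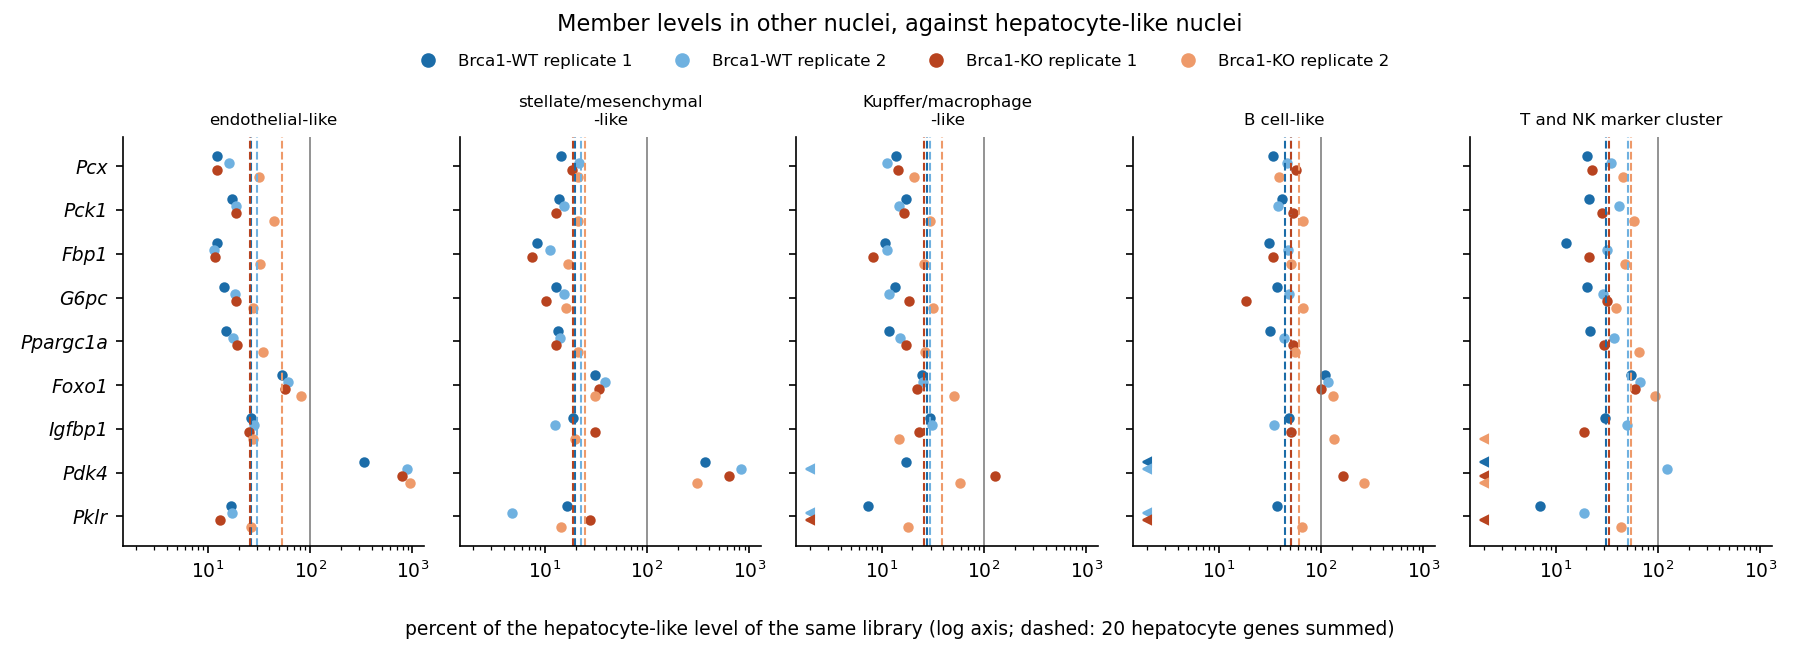
Points show each member's level in 5 other groups of nuclei as a percentage of its hepatocyte-like level in the same library, on a log axis, with 100% as a grey line and dashed lines for the 20 summed hepatocyte genes of each library. Triangles at the left edge mark values below 2%, most of them 0. Pdk4 lies beyond 300% in endothelial-like and stellate-like nuclei, and most other points lie left of 100%.

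Within hepatocyte-like nuclei, levels per nucleus were compared after thinning each nucleus to 3000 UMIs, which left 2495 to 3801 nuclei per library and left out 78 to 506. At that depth 92.8% to 99.5% of nuclei held a Pck1 UMI, 25.2% to 84.2% a G6pc UMI, 2.34% to 19.3% an Igfbp1 UMI and 0.526% to 2.22% a Pdk4 UMI. Pearson correlations of log2(UMI + 1) between members were weak and are given as a description. Of the 36 pairs the median over libraries was highest for G6pc and Fbp1, at 0.150 (0.215, 0.129, 0.172 and 0.0608 in the 4 libraries), followed by G6pc with Pck1 at 0.0951 (0.0556 to 0.140). The median of all 36 pairs was 0.00549. Ppargc1a and G6pc, coactivator and target, stood at 0.0146, and Foxo1 and G6pc at 0.0129. Within zones the value for G6pc and Fbp1 was 0.0951, 0.0634 and 0.0588 from periportal to perivenous. These pairs share a library, a thinned depth and a place on the zone score.

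Against the zone score itself, Fbp1 had a correlation over nuclei of -0.390 to -0.268 in the 4 libraries and G6pc of -0.310 to -0.165. Pck1 stood at -0.163, -0.253 and -0.143 in the first 3 libraries but at -0.538 in the library labelled Brca1-KO replicate 2. Igfbp1 stayed between 0.0350 and 0.110. In nuclei with an Igfbp1 UMI the mean G6pc count was 0.836, 0.883 and 0.936 times that of nuclei without one in the first 3 libraries and 1.11 times in the fourth, where 89 nuclei held an Igfbp1 UMI.

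**Figure D5:**
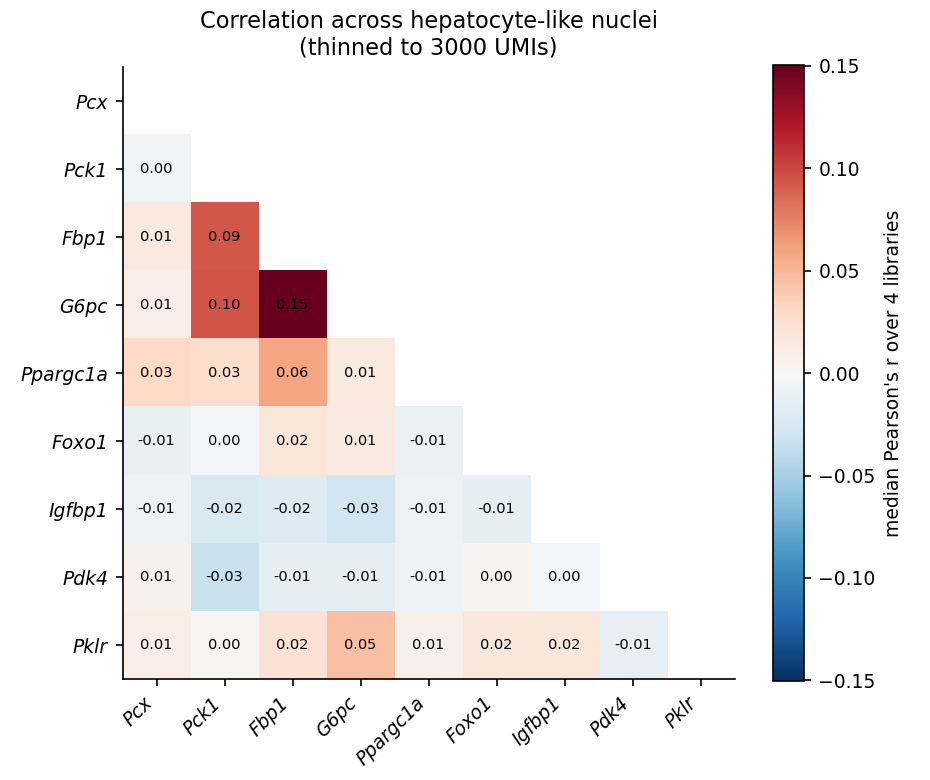
Each cell gives the median over 4 libraries of Pearson's r between 2 members across hepatocyte-like nuclei thinned to 3000 UMIs, coloured from blue (below 0) to red (above 0). The reddest cells join G6pc, Fbp1 and Pck1, and most others lie near 0.

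The genes most like a member were found by the same correlation among 5713 genes with a UMI in at least 5% of nuclei. For G6pc they were Sds, Hal and Gldc (median r over 4 libraries 0.230, 0.221 and 0.215), which encode serine dehydratase, histidine ammonia-lyase and glycine decarboxylase, and Sds and Hal are genes of the zone score. For Pck1 they were Cps1, Slc7a2 and Ass1 (0.239, 0.208 and 0.205), of which Cps1 and Ass1 are enzymes of the urea cycle and Slc7a2 imports cationic amino acids. For Ppargc1a they were Gldc, Sds and Hsd17b13 (0.120, 0.120 and 0.103), of which Sds and Hsd17b13 are genes of the zone score. For Igfbp1 they were Tox, Tenm3 and Ahsg, at only 0.0597, 0.0570 and 0.0537.

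The share of hepatocyte-like nuclei with a UMI, at 1000 UMIs per nucleus, was read beside the levels. For G6pc it was 57.1%, 30.5%, 31.8% and 10.5% (unthinned 93.1%, 77.4%, 84.0% and 46.2%), so the groups overlapped, and for Pck1 it was 90.0%, 91.2%, 86.0% and 74.2%. For Igfbp1 it was 6.88%, 5.39%, 5.38% and 1.18%. The groups did not overlap for Pck1, Igfbp1 and Pdk4, each at an exact 2-sided permutation p of 0.333, and a design of this size cannot give a smaller one. Igfbp1 was parted only by 5.39% against 5.38%, and its groups overlapped in CPM. The share of all genes without overlap was not computed for this measure. By level it was 31.9%.

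The other genes of the pathway were read in 6 lists. Of 29 further enzymes of glycolysis and gluconeogenesis, 27 were tested by zone and 19 passed, 15 of them higher in the periportal and 4 in the perivenous zone, beside 26.5% over all genes. Khk, the ketohexokinase of fructose use, had a log2 difference of -0.98 (SE 0.08) and Eno1, an enolase, of -0.94 (SE 0.08), while Pfkfb1, the bifunctional regulator of fructose 2,6-bisphosphate, was higher toward the central vein at 0.68 (SE 0.06), each with an adjusted p below 0.05 in edgeR.

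Of 12 tested genes that feeding raises, 7 passed by zone, all higher in the periportal zone. Acly, which makes cytosolic acetyl-CoA for lipid synthesis, had the strongest difference at -1.86 (SE 0.07, periportal to perivenous ratios of 3.22 to 4.05), and Tkfc and Elovl6 stood at -1.17 and -0.82. Of 16 genes that fasting raises, 7 passed, 3 higher in the periportal zone (Cpt1a, the gate of fatty acid oxidation, at -0.35) and 4 in the perivenous zone (Acot1 at 0.99 and Lpin2 at 0.64). Of 9 glycogen genes 4 passed, 2 in each direction, with Gys2, liver glycogen synthase, at -0.53 and Ppp1r3c, a glycogen-targeting subunit of protein phosphatase, at 0.62. Of 22 hormone signalling genes and regulators 6 passed, 5 of them higher in the periportal zone (Sik1 at -0.39), as did 3 of 14 clock genes, all higher in the periportal zone (Cry1 at -0.80). For the regulators and the clock genes these shares are near the 26.5% of all genes called.

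By genotype no gene of these lists passed. Of the 16 fasting genes 13 had a log2 fold change below 0, with a median of -0.42 beside -0.01 over all genes, and 5 had an unadjusted p below 0.05, as had 3.3% of all genes. Cyp4a14, a PPARα target of the fasted liver, stood at 1177, 1866, 658 and 229 CPM, Angptl4 at 135, 111, 87.7 and 63.0 and Acot1 at 24.5, 22.6, 7.88 and 7.99. Groups did not overlap for 6 of the 16, with Brca1-KO the lower for 5 and the higher for 1, beside 16.9% and 14.9% of all genes. The same counts, lower and higher, were 1 and 8 of the 22 regulators and 0 and 4 of the 10 glycogen genes. They were 4 and 2 of the 12 feeding genes, 6 and 1 of the 29 enzymes and 0 and 2 of the 14 clock genes. Of the 12 feeding genes 5 were above and 7 below 0 (median -0.26), and of the 29 enzymes 8 and 21 (median -0.04), 18 of the 29 being lowest in the library labelled Brca1-KO replicate 2, beside 32.2% of all genes. Of 22 regulators 17 were above 0 (median 0.12), Hnf4a at 470, 441, 602 and 691. The clock genes, listed as possible markers of the hour of killing, split 7 and 7, and Nr1d1 stood at 19.6, 14.4, 24.5 and 42.2 CPM. The labels give no hour of killing or feeding state, and the part of either in these values was not tested.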

How the data were processed

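UMI counts per gene and barcode had been deposited for 4 libraries. Per the file headers the authors made these counts with Cell Ranger 6.0.0, and the submitters' processing notes name GRCh38, while all 32285 gene identifiers are mouse, so the mouse build stays unknown here, as do the counting of introns and the use of strand. A 10x 3′ kit is named, and genomic DNA is entered as the molecule.

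Nuclei with at least 500 genes and at most 5% mitochondrial UMIs were kept, doublets were removed with Scrublet per library (11.3%, 7.33%, 5.01% and 2.99%), and 20 Leiden clusters were made with scanpy 1.11.5. Clusters were named from fixed marker lists. UMIs were summed per library (and zone) and tested with edgeR 4.0.16 (TMM, filterByExpr, robust quasi-likelihood), adjusted over all genes. DESeq2 1.42.0, other size factors, filters, zone cuts, thinning, blocks and leaving out each library were alternatives. On simulated counts with 200 changed genes at a dispersion of 0.02, the genotype test recovered 88.0% to 100.0% of genes changed by 1 or 2 on the log2 scale. At a dispersion of 0.10 it recovered 2.0% of those changed by 1 and 60.0% to 72.0% of those changed by 2. The zone test recovered 98.0% to 100.0% at 0.02. At 0.10 it recovered 34.0% to 36.0% of genes changed by 1 and 100.0% of those changed by 2. Smaller differences, such as those of Pck1, Igfbp1 and Pdk4 by zone, were not simulated. Both dispersions were chosen values and were not estimated from the members. Members of wider spread, such as G6pc (SE 0.73) and Igfbp1 (SE 0.85), were not simulated, and recovery at their spread may be lower. The named genes are the 9 members, up to 3 genes per list of smallest p in each fit, and the 3 genes most like G6pc, Pck1, Ppargc1a and Igfbp1. Some genes that this rule names are not reported here. Members and lists were chosen with earlier results of these data known.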

Additional observations from a re-analysis of the deposited data

How the results depend on the processing

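The zone calls of Fbp1, G6pc and Pklr held under each alternative except the omission of the library block, where edgeR called 387 genes and none of the members. The log2 difference stayed between -1.31 and -1.09 for Fbp1, -1.14 and -0.96 for G6pc, -1.29 and -0.91 for Pklr and -0.85 and -0.61 for Ppargc1a over all 14 settings. Igfbp1 and Pdk4 passed with the outermost 25%, common cut points over all libraries, periportal markers alone and without Brca1-WT replicate 1. Igfbp1 also passed in DESeq2.

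Genes called by genotype numbered 23 in DESeq2, 2 with no filter, and 0 to 30 with a library left out. With the replicate block the count was 0 (452 genes at an unadjusted p below 0.05) and G6pc stood at -1.60. Same-numbered libraries correlated at -0.113 in their deviations from the group means. With 2 libraries per group this is a single value, so it cannot show whether the numbers pair them. The crossed pairing, chosen after seeing the data, also called 0 (564 at an unadjusted p below 0.05). Leaving out libraries gave 0 to 1 calls in the periportal zone (Thsd4 or Car3) and 0 to 147 in the middle zone, and 0 to 44 for the interaction, where no filter gave 54.

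Directions near 0 were not stable. Foxo1 by genotype was 0.023 in DESeq2, 0.0093 with no filter and 0.015 thinned to 1000 UMIs, and Pcx was -0.032 thinned. Over the libraries left out in turn, genotype estimates ran from -0.86 to 0.15 for Fbp1, -0.37 to 0.27 for Foxo1, -0.040 to 0.21 for Pcx, -0.81 to 0.60 for Pklr and -1.06 to 0.46 for Ppargc1a. In the periportal zone they ran from -0.89 to 0.11, -0.40 to 0.27, -0.14 to 0.19, -0.98 to 0.57 and -1.03 to 0.34 for the same genes. In the middle zone they ran from -0.73 to 0.10, -0.38 to 0.22, -0.040 to 0.23, -0.98 to 0.72 and -1.05 to 0.46. In the perivenous zone they ran from -0.89 to 0.16, -0.35 to 0.26, -0.022 to 0.19, -0.54 to 0.61 and -1.08 to 0.53. Interaction estimates ran from -0.11 to 0.17 for Fbp1, -0.068 to 0.12 for Foxo1, -0.47 to 0.52 for Igfbp1, -0.91 to 0.089 for Pck1 and -0.19 to 0.50 for Ppargc1a. The cause was not tested.

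The median correlation of the 36 pairs was -0.00358, 0.000683 and 0.00156 within the 3 zones. Members above every reference gene in all 4 libraries numbered 0 in stellate-like nuclei of at most 2000 UMIs, where Pdk4 stayed above in 3 libraries. Pdk4 rests on 75 to 237 hepatocyte UMIs per library, which limits its precision.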

Other observations

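In the library labelled Brca1-KO replicate 2, 8 of the 16 genes that fasting raises had their lowest level of the 4 libraries and 2 their highest, beside 4858 and 4530 of 15108 genes in all. Tat, Fkbp5, Lpin1, Tsc22d3 and Arntl are named here after their values were seen. Tat, an amino acid catabolic enzyme that glucocorticoids induce, stood at 2393, 2083 and 2147 CPM of hepatocyte-like nuclei in Brca1-WT replicates 1 and 2 and the library labelled Brca1-KO replicate 1, and at 764 in replicate 2. Fkbp5, a glucocorticoid-induced cochaperone, stood at 1489, 1309, 1670 and 476, and Lpin1, a phosphatidate phosphatase, at 1916, 2233, 3169 and 389. Tsc22d3, another glucocorticoid-induced gene, ran the other way at 289, 293, 382 and 507. Among clock genes Arntl stood at 42.1, 54.1, 74.4 and 14.4, and Dbp at 22.3, 28.6, 28.5 and 38.7. These genes were in the lists already counted, and none passed the genotype test.

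Gbe1, the glycogen branching enzyme, was high in the library labelled Brca1-KO replicate 2, at 1232 CPM against 441, 507 and 515, and Ugp2, which makes UDP-glucose for glycogen, stood at 387 against 200.3, 241 and 249. Scd1, a desaturase of fed lipogenesis, stood at 39.7 there against 12.4, 16.9 and 15.7. Srebf1, which encodes the lipogenic factor SREBP-1, stood at 17.2 and 17.2 in the Brca1-WT libraries and at 11.1 and 12.7 in the libraries labelled Brca1-KO. Of the 12 genes that feeding raises, 5 were highest and 2 lowest in the library labelled Brca1-KO replicate 2, beside the same 4530 and 4858. Of the 10 glycogen genes, 4 were highest and 3 lowest there.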
